A study of Homo sapiens with 16 samples.

Results

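The transcriptional response of SETD2 knockout 786-O kidney cancer cells to the BCL-XL inhibitor A1331852 was measured by poly-A RNA sequencing in 6 of the 16 libraries of the series. 786-O is an established clear cell renal carcinoma line, and its derivative labelled knockout (KO) is one for SETD2, the histone methyltransferase that places the trimethyl mark on lysine 36 of histone H3. The 2 groups were 3 libraries of KO cells given 100 nM A1331852 for 72 h and 3 libraries of KO cells given DMSO, the vehicle, all grown in RPMI medium with 10% fetal bovine serum. The labels name no clone and no editing method, and nothing in them says whether the 3 libraries of a group came from separate cultures, so p-values measure the spread between these libraries, which may be technical. DMSO replicates 1 and 2 carry the label batch 2, and DMSO replicate 3 and the 3 treated libraries carry batch 1. The 6 libraries of the SETD2 wild-type (WT) line, 3 with A1331852 and 3 with DMSO and labelled with the same batches, entered the same fit and served as the comparison. The remaining 4 libraries, from the A498 line, were not used here.

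A1331852 is a BH3 mimetic: it fills the groove of BCL-XL, the protein encoded by BCL2L1, and frees the BH3-only proteins and the pore formers BAX and BAK that BCL-XL holds in check on the mitochondrial outer membrane. Pores in that membrane release cytochrome c and can also let mitochondrial DNA or RNA reach the cytosol, where the sensors CGAS and IFIH1 detect nucleic acid and switch on interferon-stimulated genes through IRF and STAT transcription factors. The title of the series places the question there: it names a need for BCL-XL and leakage of mitochondrial DNA in renal carcinoma cells without SETD2.

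Several of the genes with the clearest rise belong to the interferon-stimulated group, which is known to be read through a short promoter element. The promoter windows below, from 250 bases before to 50 bases after the start site, come from RefSeq (GRCh38.p14). Capitals mark each match to the core of the interferon-stimulated response element, GAAANNGAA, searched on both strands. They are shown because ISG20, IFIT3, RSAD2 and ISG15 rose in the KO cells and differ in the number and place of matches, while CMPK2 rose without a match in its window. OASL and IFIT2 were not examined for matches.
ISG20: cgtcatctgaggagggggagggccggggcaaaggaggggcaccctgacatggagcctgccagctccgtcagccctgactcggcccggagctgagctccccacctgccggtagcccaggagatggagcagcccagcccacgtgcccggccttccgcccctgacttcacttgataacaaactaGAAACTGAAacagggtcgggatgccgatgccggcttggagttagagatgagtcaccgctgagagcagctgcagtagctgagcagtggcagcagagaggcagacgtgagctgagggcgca
IFIT3: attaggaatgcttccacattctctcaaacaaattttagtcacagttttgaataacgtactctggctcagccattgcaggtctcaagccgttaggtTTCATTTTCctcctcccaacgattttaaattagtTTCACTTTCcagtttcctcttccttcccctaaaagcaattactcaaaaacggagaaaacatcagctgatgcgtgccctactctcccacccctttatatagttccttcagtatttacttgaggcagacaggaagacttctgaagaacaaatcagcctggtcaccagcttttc
RSAD2: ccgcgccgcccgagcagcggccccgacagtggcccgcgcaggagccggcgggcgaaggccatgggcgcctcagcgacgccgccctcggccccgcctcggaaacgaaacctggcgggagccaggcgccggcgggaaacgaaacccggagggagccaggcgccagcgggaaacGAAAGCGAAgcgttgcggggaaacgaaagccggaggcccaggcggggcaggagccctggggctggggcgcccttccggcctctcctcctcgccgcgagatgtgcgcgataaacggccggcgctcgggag
ISG15: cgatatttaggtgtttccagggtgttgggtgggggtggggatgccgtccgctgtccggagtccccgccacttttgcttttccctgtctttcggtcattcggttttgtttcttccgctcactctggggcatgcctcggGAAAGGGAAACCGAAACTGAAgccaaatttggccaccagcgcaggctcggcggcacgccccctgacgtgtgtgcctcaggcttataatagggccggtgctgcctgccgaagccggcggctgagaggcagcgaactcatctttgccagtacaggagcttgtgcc
CMPK2: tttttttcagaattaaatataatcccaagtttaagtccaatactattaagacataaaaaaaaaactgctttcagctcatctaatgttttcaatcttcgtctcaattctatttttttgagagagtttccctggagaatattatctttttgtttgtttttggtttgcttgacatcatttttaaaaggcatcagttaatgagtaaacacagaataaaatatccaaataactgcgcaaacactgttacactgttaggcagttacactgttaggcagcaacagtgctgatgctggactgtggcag
The ISG20 window lies at chr15:88638766-88639065, plus strand, and its single match begins at base -69 from the start site. IFIT3 (chr10:89327747-89328046, plus strand) holds 2 matches, the farther of which begins at base -155. RSAD2 (chr2:6865635-6865934, plus strand) holds 1 match at base -79, and ISG15 (chr1:1013247-1013546, plus strand) holds 3 overlapping matches from base -113. CMPK2 (chr2:6866586-6866885, minus strand), the neighbour of RSAD2 on the opposite strand, holds 0 in this window, and other start sites of CMPK2 were not examined. The core was found in 28 of the 39 promoters matched for the interferon-stimulated list (71.8%), against 8.29% of all 27305 RefSeq promoter windows and 6.39% of those of the genes tested. The same core stood in 9.65% of the windows of genes that rose and 5.29% of those that fell. The genes that rose include the called members of the interferon-stimulated list, so their share is not independent of it. The share without those members is not given. A match describes letters in a window and is not a measured binding site.

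Total counts were 14172118 to 18330094 in the treated KO libraries and 18723416 to 35834962 in the DMSO ones, and levels are given as normalised CPM, a library's counts scaled to a common total. DMSO replicates 1 and 2 stood close together, with a mean chi-square per gene of 3.27, whereas each differed from replicate 3 by 104 and 95. The treated libraries differed from each other by 23.3 to 56.2. SETD2 mRNA was 29.5, 47.7 and 52.5 CPM in treated replicates 1 to 3 and 30.02, 28.02 and 30.2 CPM in DMSO replicates 1 to 3, all below the 6 WT libraries, whose lowest was 63.2 CPM, so the mRNA was lower but still present, and protein was not measured. The counts cover the whole gene and do not single out an edited exon. A1331852 left SETD2 at a log2 fold change of 0.57 ± 0.22, adjusted p = 0.11. Kidney and tubule markers summed to 5202 to 6038 CPM with A1331852 and 5419 to 7677 CPM with DMSO, led in both groups by VIM, which is not specific to tubule, with SLC22A6 at 0. PAX8, a renal lineage marker, stood at 180 to 269 CPM, whereas CA9 and NDUFA4L2, markers of clear cell carcinoma, reached at most 0.199 and 0.289 CPM in any KO library. Leukocyte markers summed to 3.22 to 5.38 CPM against 2.18 to 3.81 CPM with PTPRC at 0, and fibroblast markers to 13.5 to 23.3 CPM against 28.2 to 31.3 CPM with DCN at 0. Endothelial markers summed to 5.92 to 11.1 CPM with A1331852 and 2.08 to 3.35 CPM with DMSO, led in both groups by ESAM, with CLDN5, EMCN and FLT1 at 0.

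Of 16260 genes tested, 1050 rose with A1331852 (6.46%) and 1151 fell (7.08%) at an adjusted p under 0.05 in edgeR's quasi-likelihood test with a batch term, fitted to the 12 libraries of both genotypes. Those shares are the background for each count of list members from that fit given below. The median log2 fold change was 1.02 among the genes that rose and -1.23 among those that fell, and 538 and 744 of them changed at least 2-fold. In 2651 genes (16.3%) all 3 treated libraries lay above all 3 DMSO libraries, and in 2773 (17.1%) all lay below. That separation held for 785 of the 1050 genes that rose and 931 of the 1151 that fell. The other 265 and 220 calls overlap in CPM. The fit takes out a shift between batches, which it can estimate only from the DMSO libraries; its part in those calls was not tested. Printed log2 fold changes are those fitted values. Where DMSO replicate 3 differs from replicates 1 and 2, some lie near the contrast with replicate 3, as in HMGA1. Others lie nearer to that with replicates 1 and 2, as in BMF, or beyond both, as in MMP1.

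Within batch 1, where DMSO replicate 3 is the only control, 25 genes rose (0.144%) and 60 fell (0.346%) of 17353 tested. All 2201 calls had the same sign there, which is not independent since these libraries also carry the main fit. Against DMSO replicates 1 and 2 without a batch term, 906 of the 1050 and 1051 of the 1151 kept their sign. When DMSO replicates 1 and 2 of each genotype were summed into a single library, an alternative added after the data were seen, 656 genes passed, 643 of them among the 2201. Without KO DMSO replicate 3 the count was 781, and without WT DMSO replicate 3 it was 592. Treatment and batch overlap, since no treated library is in batch 2. In RNA from whole cultures, a change in the share of cells in a given state and a change in RNA per cell cannot be told apart.

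**Figure D1:**
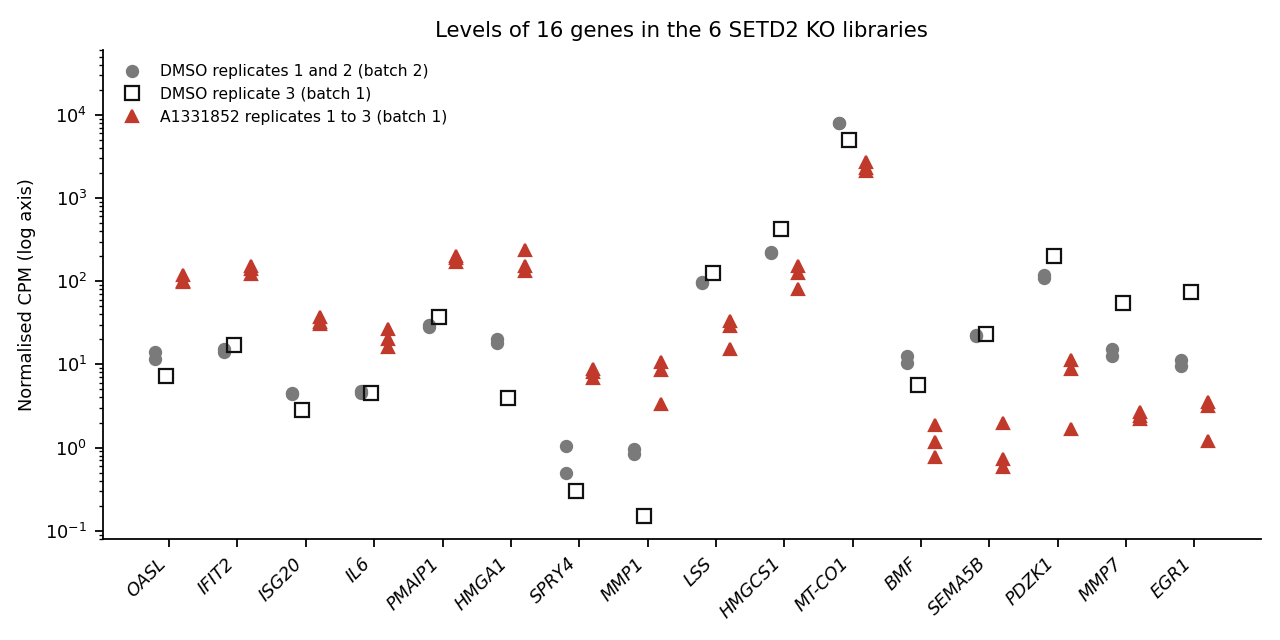
Normalised CPM (log axis) of 16 genes in the 6 KO libraries, with filled circles for DMSO replicates 1 and 2, open squares for DMSO replicate 3 and triangles for the 3 A1331852 libraries. In each of the 16 genes the triangles lie wholly above or wholly below the 3 DMSO points, and for HMGA1, MMP1, MMP7 and EGR1 DMSO replicate 3 stands apart from replicates 1 and 2.

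Among the genes of the BCL-2 family, PMAIP1 rose and BMF fell, while the drug's own target did not pass the test. PMAIP1, which encodes the BH3-only protein NOXA that binds MCL1, was at 201, 171 and 192 CPM in treated replicates 1 to 3 and 29.5, 28.1 and 37.5 CPM in the DMSO replicates. All 3 treated libraries stood far above all 3 controls, with a log2 fold change of 2.41 ± 0.28, adjusted p = 0.00069, and 2.34 within batch 1. BMF, a BH3-only gene tied to loss of attachment, was at 1.17, 0.7799 and 1.86 CPM against 10.4, 12.5 and 5.71 CPM, again without overlap (log2 fold change -2.89 ± 0.45, adjusted p = 0.0028, and -2.17 within batch 1). BID, which links death receptors to mitochondria, rose to 142, 118 and 125 CPM from 77.5, 79.4 and 71.9 CPM (0.95 ± 0.18, adjusted p = 0.0074); without WT DMSO replicate 3 its adjusted p was 0.064. Leaving out any 1 of the 12 libraries kept the calls of PMAIP1 and BMF.

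BCL2L1 itself was at 269, 310.2 and 361 CPM with A1331852 and 300.1, 302 and 228 CPM with DMSO, and the groups overlapped (0.40 ± 0.24, adjusted p = 0.29). MCL1, the pro-survival relative that NOXA neutralises, was at 250.2, 281 and 274 CPM against 186, 176 and 210.4 CPM (0.39 ± 0.17, adjusted p = 0.14), higher in all 3 treated libraries but short of the test. BCL2, the founding pro-survival member, fell to 8.47, 14.3 and 12.9 CPM from 21.1, 18.2 and 26.3 CPM (-1.12 ± 0.29, adjusted p = 0.028). BCL2L2 and BCL2A1, also pro-survival, rose with log2 fold changes of 0.71 ± 0.18 (adjusted p = 0.023) and 3.17 ± 0.88 (adjusted p = 0.035), the latter from a level under 0.3 CPM. BCL2L11, which encodes BIM, fell from 33.5, 34.7 and 25.8 CPM to 9.54, 12.6 and 12.3 CPM (-1.51 ± 0.41, adjusted p = 0.033). The calls of BCL2, BCL2L2, BCL2A1 and BCL2L11 were lost in the summed setting (adjusted p = 0.096, 0.11, 0.11 and 0.12) and without KO DMSO replicate 3 or WT DMSO replicate 3, among other libraries (highest adjusted p 0.21, 0.14, 0.23 and 0.18).

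The pore formers BAX (0.17 ± 0.14, adjusted p = 0.47) and BAK1 (0.04 ± 0.15, adjusted p = 0.88) did not pass, and the fitted sign of BAK1 differed between settings. BBC3, which encodes PUMA, was at -0.36 ± 0.33 (adjusted p = 0.52). Of 12 genes for death receptors and necroptosis, 2 rose and 0 fell (background 6.46% and 7.08%). MLKL, the executioner of necroptosis, went from 20.9, 21.6 and 18.7 CPM to 39.6, 40.7 and 34.8 CPM (1.27 ± 0.23, adjusted p = 0.0058) and kept its call with any 1 library left out. The death receptor gene FAS rose by a log2 fold change of 0.68 ± 0.15 (adjusted p = 0.014, 0.076 in the summed setting and up to 0.10 without KO or WT DMSO replicate 3).

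Interferon-stimulated genes formed the list with the largest share of rises among the 44 examined in the 12-library fit: 36 of 49 tested members rose and 0 fell, with a median log2 fold change of 1.38 beside 0.01 over all genes tested. Within batch 1 the median was 1.16, and 8 members rose there. In the summed setting 16 of the 49 rose, and with 1 library left out 12 (without WT DMSO replicate 3) to 39 (without KO A1331852 replicate 1) rose. Earlier results of these data named this group before the list was drawn up, so its direction is a description of these libraries. The 49 members summed to 5238, 8591 and 8165 CPM in treated replicates 1 to 3 and to 4669, 4694 and 4095 CPM in the DMSO replicates. Treated replicate 1 was the lowest of the treated libraries for 43 of the 49 genes, and replicate 2 the highest for 37.

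OASL (chromosome 12, 121017763-121039246, GRCh38), an OAS-family protein that binds RNA and supports RIG-I signalling, was at 102, 119.5 and 96.7 CPM in treated replicates 1 to 3 and 11.7, 14.1 and 7.24 CPM in DMSO replicates 1 to 3. The groups lay far apart, with a log2 fold change of 4.23 ± 0.33, adjusted p = 0.00018, and 3.88 within batch 1 (adjusted p = 0.0094). IFIT2, IFIT3 and IFIT1, neighbouring genes whose products bind foreign RNA, rose together. IFIT2 was at 121, 141 and 152 CPM against 14.1, 15.4 and 17.1 CPM (3.16 ± 0.28, adjusted p = 0.00029). IFIT3 was at 234, 319 and 252 CPM against 44.5, 46.4 and 47.8 CPM (2.62 ± 0.24, adjusted p = 0.00037). IFIT1 reached 77.2, 139 and 96.5 CPM from 25.4, 25.6 and 24.96 CPM (2.25 ± 0.26, adjusted p = 0.00066). In all 3 genes every treated library was above every DMSO library, and for IFIT2 and IFIT3 the treated range was several times the highest control.

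ISG20, an exonuclease that degrades RNA, was at 32.2, 37.3 and 30.6 CPM against 4.48, 4.46 and 2.83 CPM (3.53 ± 0.33, adjusted p = 0.00037), and 3.57 within batch 1. RSAD2, which encodes viperin, was at 148, 267 and 202 CPM against 17.3, 18.4 and 16.6 CPM (4.11 ± 0.50, adjusted p = 0.00083). Its promoter neighbour CMPK2, a mitochondrial nucleotide kinase, was at 26.8, 50.6 and 35.7 CPM against 10.9, 11.01 and 5.76 CPM (2.74 ± 0.28, adjusted p = 0.00047). The pair rose without overlap. CMPK2 had no match to the response element core in the window of the start site used. The RSAD2 window, with its match, lies downstream of that start site on the CMPK2 strand, and other CMPK2 start sites were not examined. ISG15, the ubiquitin-like modifier with 3 matches, was at 143, 236 and 231 CPM against 88.02, 96.5 and 73.7 CPM and rose less (1.71 ± 0.28, adjusted p = 0.0031). OAS2, which makes the second messenger of RNase L, was at 7.46, 38.3 and 20.4 CPM, a wide spread, against 3.901, 4.03 and 1.64 CPM (4.22 ± 0.74, adjusted p = 0.0047). ISG20, RSAD2, CMPK2, ISG15, OAS2, OASL, IFIT1, IFIT2 and IFIT3 each kept their call with any 1 library left out and in the summed setting.

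**Figure D2:**
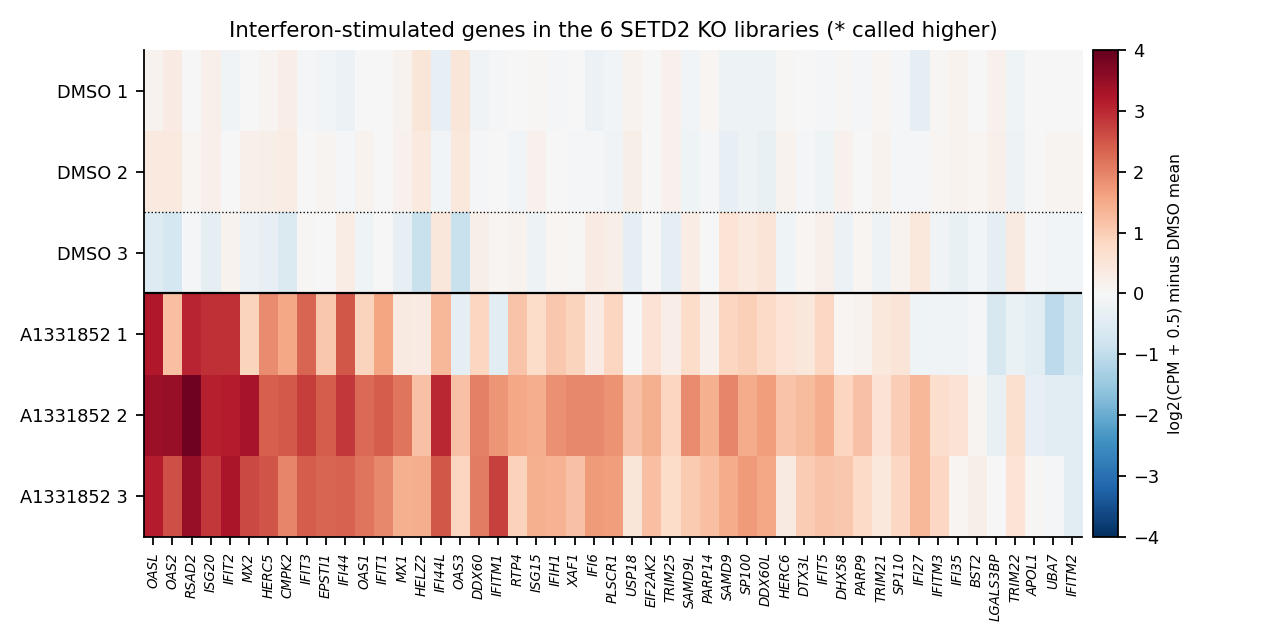
Heat map of log2(CPM + 0.5) minus the mean of the 3 DMSO libraries for the 49 interferon-stimulated genes tested in the 6 KO libraries (rows). Columns are genes ordered by fitted log2 fold change. Calls are not marked: no column bears the asterisk that the title of the figure names. The treated rows are mostly red from OASL to beyond the middle, and treated replicate 1 is paler than replicates 2 and 3 in most columns. The genes from IFI27 to IFITM2 at the right were not called in the fit.

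Members that did not pass included IFI27 (0.72 ± 0.59, adjusted p = 0.45), BST2 (0.28 ± 0.17, adjusted p = 0.30) and LGALS3BP (0.00 ± 0.20, adjusted p = 0.99). Of 20 interferon ligands, receptors, STATs and IRFs tested, 3 rose and 1 fell (background 6.46% and 7.08%). In the summed setting 1 rose and 0 fell (1 at an unadjusted p under 0.05). IRF1, a transcription factor of such genes, rose from 64.7, 65.2 and 44.2 CPM to 84.3, 93.3 and 92.1 CPM (1.02 ± 0.16, adjusted p = 0.0025) and kept its call with any 1 library left out. IRF7 (1.37 ± 0.54, adjusted p = 0.11) and IRF9 (0.87 ± 0.32, adjusted p = 0.098) did not pass. The interferon gene IFNB1 fell under the count filter, with 1, 3 and 2 reads in the treated and 3, 0 and 0 in the DMSO replicates. IFNL1, a type III interferon singled out after its counts were seen, had 4, 6 and 6 reads in the treated KO libraries and 0 in each of the other 9 libraries, which was below the filter and not tested.

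Among 18 genes for sensing of nucleic acid in the cytosol, 5 rose and 3 fell (background 6.46% and 7.08%). In the summed setting 2 rose and 0 fell (3 at an unadjusted p under 0.05), only 1 rose without WT DMSO replicate 3, and no fall remained called without KO DMSO replicate 3. IFIH1, which encodes the double-stranded RNA sensor MDA5, was at 57.99, 96.2 and 71.97 CPM against 25.6, 27.2 and 28.2 CPM (1.67 ± 0.29, adjusted p = 0.0047). EIF2AK2, the RNA-activated kinase PKR, was at 152, 275 and 239 CPM against 104, 102 and 103 CPM (1.21 ± 0.23, adjusted p = 0.0068), and lost its call without KO or WT DMSO replicate 3 (adjusted p up to 0.059). Both genes are themselves interferon-stimulated and stand in both lists. CGAS, the DNA sensor, was at 28.2, 27.8 and 20.4 CPM against 20.4, 22.01 and 16.3 CPM, with overlap (0.86 ± 0.21, adjusted p = 0.021); its call was lost in the summed setting (adjusted p = 0.098), without KO A1331852 replicate 2 and without WT DMSO replicate 3 (up to 0.14). STING1, the adaptor downstream of CGAS, was lower in every treated library (28.8, 46.4 and 55.6 CPM against 59.4, 63.99 and 63.3 CPM) and did not pass (-0.65 ± 0.30, adjusted p = 0.18). RIG-I, listed in the counts under its older symbol DDX58 and therefore absent from the lists, was at 1.49, 3.74 and 4.51 CPM against 0.636, 1.02 and 0.843 CPM (DDX58 log2 fold change 1.38 ± 0.63, adjusted p = 0.17). Of 20 genes for antigen presentation by MHC class I, 2 rose and 0 fell (background 6.46% and 7.08%), and 1 rose in the summed setting.

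Of 28 targets of NF-kB, a transcription factor of inflammation, 13 rose and 2 fell (median 1.17), against background shares of 6.46% and 7.08%. In the summed setting 5 rose and 0 fell, and with 1 library left out 3 (without WT DMSO replicate 3) to 19 (without WT A1331852 replicate 3) rose. The summed level of the 28 genes overlapped between the groups, at 1841, 1954 and 2043 CPM in treated replicates 1 to 3 and 2051, 2012 and 1772 CPM in the DMSO replicates. IL6, a pro-inflammatory cytokine, was at 20.04, 26.5 and 16.3 CPM against 4.797, 4.56 and 4.47 CPM, without overlap (2.43 ± 0.28, adjusted p = 0.00066; 2.24 within batch 1). CCL5, a chemokine for T cells, was at 4.16, 7.799 and 4.97 CPM against 1.36, 0.899 and 0.496 CPM (4.01 ± 0.70, adjusted p = 0.0046), with adjusted p = 0.052 without WT DMSO replicate 3. CXCL8, a neutrophil chemokine, was at 29.2, 41.3 and 71.6 CPM against 4.85, 3.91 and 4.07 CPM (4.11 ± 1.08, adjusted p = 0.028), and its call was lost in the summed setting (adjusted p = 0.096) and in 6 of the 12 fits that leave out 1 library (up to 0.19). CSF2, which encodes GM-CSF, was at 18.4, 17.1 and 21.6 CPM against 1.13, 1.43 and 0.794 CPM (4.93 ± 0.98, adjusted p = 0.0084). It lost its call without KO or WT DMSO replicate 3 (adjusted p up to 0.090).

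Feedback inhibitors of the pathway rose by smaller amounts. NFKBIA, which encodes the inhibitor that holds NF-kB in the cytosol, was at 45.7, 44.8 and 43.05 CPM against 24.99, 25.8 and 26.4 CPM (0.81 ± 0.24, adjusted p = 0.041), and TNFAIP3, which encodes A20, at 24.4, 31.6 and 25.1 CPM against 15.4, 14.5 and 11.9 CPM (1.33 ± 0.30, adjusted p = 0.013). Both calls were lost in the summed setting (adjusted p = 0.13 and 0.059) and without KO or WT DMSO replicate 3, among others for NFKBIA (up to 0.19 and 0.10). SOD2, a mitochondrial superoxide dismutase, and TNFAIP2 fell (-0.64 ± 0.18, adjusted p = 0.039, and -1.27 ± 0.27, adjusted p = 0.011), but not without KO or WT DMSO replicate 3 (up to 0.22 and 0.077). CSF1, the macrophage growth factor, shows how the batch term acts: it was at 236, 218 and 156 CPM against 207, 198 and 75.4 CPM, so DMSO replicates 1 and 2 overlap the treated libraries and replicate 3 lies below them (1.55 ± 0.20, adjusted p = 0.00095).

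Of 21 genes for secreted factors associated with senescence, 9 rose and 1 fell (median 1.55, background 6.46% and 7.08%), and 7 rose and 1 fell in the summed setting. IL6, CXCL8, CSF2, CSF1 and CXCL2, which rose, also stand in the NF-kB list, as do the tested members LIF, CCL2 and CXCL1, which were not called. EREG, a ligand of the EGF receptor, was at 298, 306 and 548 CPM against 71.5, 66.96 and 28.98 CPM (4.24 ± 0.66, adjusted p = 0.0026), and its relative AREG at 16.9, 12.4 and 19.2 CPM against 1.21, 1.55 and 1.49 CPM (4.19 ± 0.66, adjusted p = 0.0028). Both ligands rose without overlap. ANGPTL4, a lipoprotein lipase inhibitor, was at 25.7, 15.6 and 14.4 CPM against 1.04, 0.992 and 0.198 CPM (5.75 ± 1.24, adjusted p = 0.012), and lost its call without KO or WT DMSO replicate 3 (up to 0.15). IGFBP3, which binds insulin-like growth factors, was the member that fell, to 200.1, 389.6 and 473 CPM from 1707, 1639 and 1909 CPM (-2.33 ± 0.32, adjusted p = 0.0014).

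Genes read out by the ERK kinase cascade rose in the KO cells: 14 of 20 rose and 1, EPHA4, fell, with a median of 1.94, and 10 rose in the summed setting. With 1 library left out 6 (without WT DMSO replicate 3) to 17 (without WT A1331852 replicate 3) rose. The ETS factors ETV1, ETV5 and ETV4 are standard readouts of that cascade. ETV1 was at 21.2, 18.5 and 19.9 CPM against 4.77, 4.93 and 4.96 CPM (2.09 ± 0.21, adjusted p = 0.00038). ETV5 was at 46.8, 48.2 and 48.3 CPM against 14.6, 14.5 and 7.94 CPM (2.79 ± 0.31, adjusted p = 0.00057). ETV4 was at 3.73, 2.76 and 3.65 CPM against 0.5201, 0.589 and 0.198 CPM (4.68 ± 0.60, adjusted p = 0.00100). In each gene the 3 treated libraries agreed closely and lay above all controls, and each kept its call with any 1 library left out.

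The feedback inhibitors of the cascade rose with them. SPRY4, a Sprouty protein, was at 7.99, 6.86 and 8.69 CPM against 0.491, 1.05 and 0.298 CPM (5.18 ± 0.86, adjusted p = 0.0037). The ERK phosphatases DUSP6 (2.11 ± 0.40, adjusted p = 0.0065) and DUSP5 (3.36 ± 0.55, adjusted p = 0.0036) rose, DUSP5 from 9.74, 11.1 and 9.63 CPM to 73.3, 53.5 and 121 CPM. FOSL1, an AP-1 subunit stabilised by ERK, was at 264, 248 and 367 CPM against 121, 116 and 50.7 CPM (2.81 ± 0.51, adjusted p = 0.0054). Without WT DMSO replicate 3 FOSL1 had adjusted p = 0.056, and without KO or WT DMSO replicate 3 DUSP6 reached 0.058. HMGA2 and HMGA1, chromatin proteins that bend AT-rich DNA, rose as well. HMGA2 was at 59.3, 36.97 and 43.05 CPM against 9.54, 8.77 and 8.34 CPM (2.91 ± 0.46, adjusted p = 0.0029), and HMGA1 at 236, 133 and 154 CPM against 18.3, 20.2 and 3.97 CPM (5.74 ± 0.67, adjusted p = 0.00066). For HMGA1, DMSO replicate 3 lies well below replicates 1 and 2, and the fitted value is close to the 5.46 of batch 1.

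Immediate early genes, which respond to the same cascade within minutes, divided: 3 of 21 rose and 3 fell (background 6.46% and 7.08%). In the summed setting 1 and 1 did so. KLF4, a zinc finger factor, was at 52.7, 65.1 and 74.6 CPM against 6.65, 7.32 and 4.32 CPM (3.94 ± 0.41, adjusted p = 0.00048). EGR1, whose product binds GC-rich promoters, was at 3.198, 3.54 and 1.19 CPM against 11.3, 9.58 and 73.4 CPM, so DMSO replicate 3 held several times the level of replicates 1 and 2 (-4.98 ± 0.88, adjusted p = 0.0047). FOS was at 5.38, 1.87 and 1.92 CPM against 0.376, 0.744 and 21.7 CPM: the treated libraries lie above DMSO replicates 1 and 2 and below replicate 3, and its fitted fall (-2.82 ± 0.85, adjusted p = 0.047) rests on replicate 3. FOS lost its call in the summed setting (adjusted p = 0.12) and in 9 of the 12 fits that leave out 1 library (up to 0.34).

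**Figure D3:**
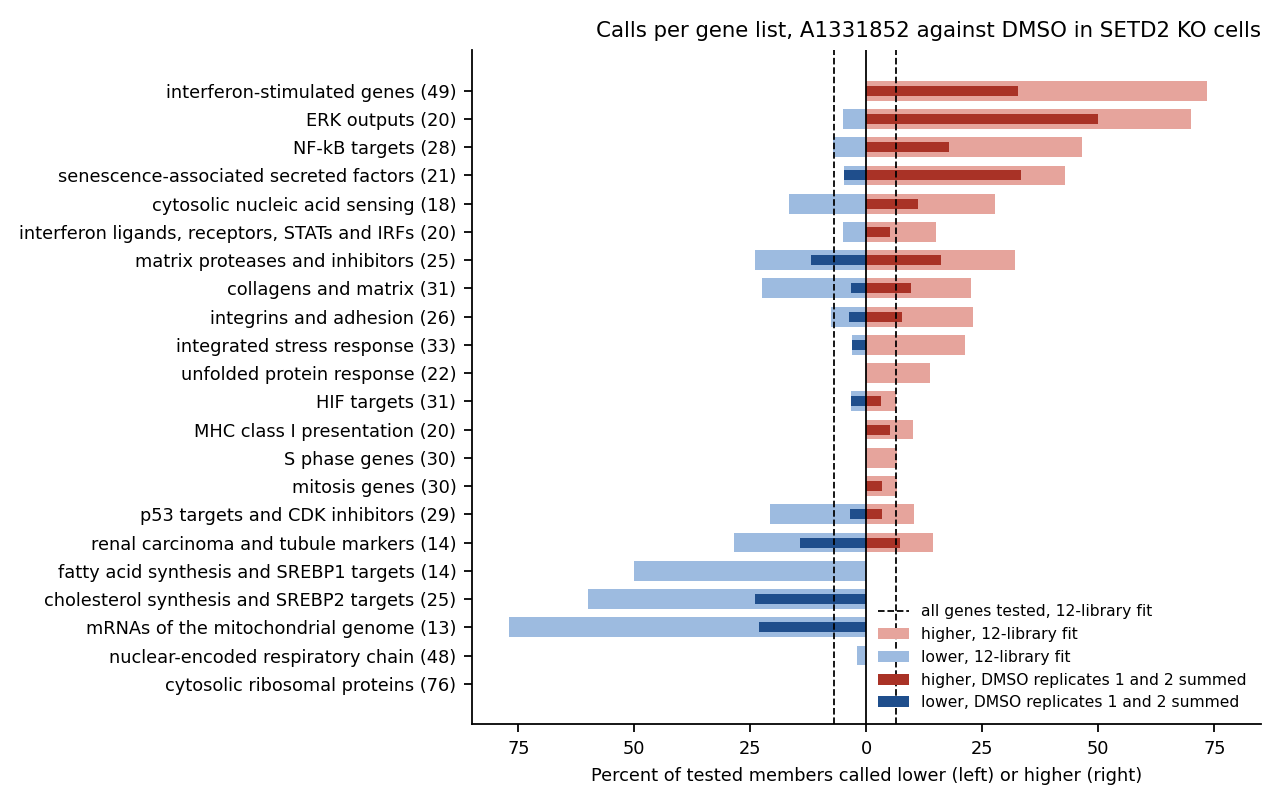
Percent of tested members (number in brackets) of 22 gene lists called higher (right) or lower (left) with A1331852 in KO cells; pale bars are the fit to 12 libraries, dark bars the setting with DMSO replicates 1 and 2 summed, and dashed lines the shares over all 16260 genes in the 12-library fit. Interferon-stimulated genes and ERK outputs reach farthest to the right, mitochondrial mRNAs and cholesterol synthesis farthest to the left.

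Genes for cholesterol synthesis fell: 15 of 25 members of the list fell and 0 rose (median -0.87), and all 3 treated libraries lay below all 3 DMSO libraries for 21 of them. In the summed setting 6 fell. With 1 library left out 2 (without KO DMSO replicate 3) to 21 (without WT A1331852 replicate 3) fell, and within batch 1 edgeR called 0 (20 fell at an unadjusted p under 0.05) with a median of -0.98. The 25 genes summed to 1557, 1962 and 2206 CPM in treated replicates 1 to 3 and to 3985, 4003 and 4097 CPM in the DMSO replicates. These genes are read by SREBP2, which is active when membrane sterol is low. HMGCS1, an early enzyme of the pathway, was at 81.3, 126 and 150.5 CPM against 219.8, 222 and 424 CPM (-1.73 ± 0.29, adjusted p = 0.0036). LSS, which closes the sterol ring, was at 15.5, 29.3 and 33.1 CPM against 97.2, 94.7 and 126 CPM (-2.19 ± 0.42, adjusted p = 0.0069), and FDFT1, the squalene synthase, at 72.1, 81.8 and 107 CPM against 166, 171 and 212 CPM (-1.13 ± 0.22, adjusted p = 0.0076). HMGCS1, LSS and FDFT1 lost their calls without KO DMSO replicate 3 (adjusted p = 0.084, 0.11 and 0.19). In that fit the remaining KO controls are all in batch 2, and the batch term is estimated from the WT DMSO libraries alone.

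Fatty acid synthesis genes fell in 7 of 14 members and rose in 0 (median -0.72), and the summed setting called 0 (9 fell at an unadjusted p under 0.05). SCD, the desaturase that makes oleate, was at 82.9, 229 and 422 CPM, a wide spread, against 493, 476 and 1217 CPM (-2.21 ± 0.50, adjusted p = 0.015), and lost its call without KO A1331852 replicate 2, KO DMSO replicate 3 or WT DMSO replicate 3 (up to 0.19). FASN, the fatty acid synthase, was at -0.81 ± 0.31 (adjusted p = 0.11). Of the 18 cholesterol promoters matched in RefSeq, 15 held a CCAAT box (83.3%, against 35.7% of all windows) and 1 the sterol element core TCACNCCAC, on either strand. The CCAAT box is not particular to this list: it stood in 79.2% of mitosis and 60.0% of S phase promoters. Genes that fell held it in 38.5%, against 36.7% of genes tested.

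Messenger RNAs encoded by the mitochondrial genome fell: 10 of 13 fell and 0 rose (median -0.84), and all 13 lay below DMSO in every treated library. They summed to 12995, 10625 and 11510 CPM in treated replicates 1 to 3, to 34633 and 34204 CPM in DMSO replicates 1 and 2, and to 21695 CPM in DMSO replicate 3. Reads on mitochondrial genes of all kinds were 1.44 to 1.69% of counts with A1331852 and 2.98 to 3.77% with DMSO. MT-CO1, the catalytic subunit of cytochrome c oxidase, was at 2691, 2098 and 2276 CPM against 8079, 7931 and 4923 CPM (-1.15 ± 0.20, adjusted p = 0.0047). MT-CYB, of complex III, was at 662, 534 and 445 CPM against 1776, 1769 and 1297 CPM (-1.30 ± 0.24, adjusted p = 0.0063), and MT-ND5, of complex I, at 730.4, 848 and 1012 CPM against 3864, 3677 and 1962 CPM (-1.14 ± 0.20, adjusted p = 0.0051). MT-CO1 kept its call with any 1 library left out, while MT-CYB and MT-ND5 lost theirs without KO DMSO replicate 3 (adjusted p = 0.063 and 0.092). In batch 1 alone 0 passed in edgeR (10 fell at an unadjusted p under 0.05), in the summed setting 3 fell, and 1 (without KO DMSO replicate 3) to 12 (without WT A1331852 replicate 1) with 1 library left out. The share of mitochondrial reads differed between DMSO replicate 3 and replicates 1 and 2 as well as with treatment, and the part of library preparation in this fall was not tested.

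Of 48 nuclear genes of the respiratory chain 1 fell and 0 rose (background 7.08% and 6.46%), 34 had a negative fitted change and the median was -0.16; 6 fell and 1 rose at an unadjusted p under 0.05, and DESeq2 called 3 lower. The difference from the mitochondrial mRNAs was not tested. Mitochondrial ribosomal proteins rose in 2 of 56 members and fell in 0. PPARGC1A, a coactivator of mitochondrial biogenesis, was at 2.35, 6.34 and 7.83 CPM against 7.397, 8.53 and 21.5 CPM, with overlap (-1.97 ± 0.38, adjusted p = 0.0070), and lost its call without KO DMSO replicate 3 (adjusted p = 0.093). HSPA9, the mitochondrial matrix chaperone mortalin, was at 664, 646 and 591 CPM against 461, 474 and 453 CPM (0.52 ± 0.13, adjusted p = 0.023), a call lost in the summed setting (adjusted p = 0.13) and in 7 of the 12 fits that leave out 1 library (up to 0.15).

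Stress programs moved less uniformly. The integrated stress response, which cells raise when mitochondria or amino acid supply fail, rose in 7 of 33 members and fell in 1 (median 0.60). The background was 6.46% and 7.08%. The summed setting called 0 rises (15 at an unadjusted p under 0.05), and DESeq2 called 14. No rise stayed called without KO DMSO replicate 3. The list's median log2 ratio was 0.85 against DMSO replicate 3 and 0.09 against replicates 1 and 2. MTHFD2, a mitochondrial folate enzyme, was at 209.5, 238 and 269 CPM against 129, 129 and 90.4 CPM (1.28 ± 0.27, adjusted p = 0.012), and SLC7A11, the cystine transporter, at 121, 151 and 196 CPM against 70.3, 66.4 and 67.6 CPM (1.01 ± 0.24, adjusted p = 0.018). Both lost their calls without KO DMSO replicate 3 (adjusted p = 0.19 and 0.33). ATF4, the factor at the centre of the response, was at 0.48 ± 0.18 (adjusted p = 0.092) and DDIT3, which encodes CHOP, at 1.43 ± 0.48 (adjusted p = 0.067). VLDLR, the member that fell, was at 61.2, 81.1 and 104 CPM against 143, 141 and 177 CPM (-1.28 ± 0.21, adjusted p = 0.0036). The ATF4 element core TGATGNAA, searched on both strands, stood in 6 of 26 promoters of the list (23.1%) against 3.67% of all windows.

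The unfolded protein response rose in 3 of 22 members and fell in 0, and the NRF2 targets rose in 5 of 24 and fell in 3 (background 6.46% and 7.08%). In the summed setting the former had 0 rises (4 at an unadjusted p under 0.05) and the latter 1 rise and 0 falls (4 at an unadjusted p under 0.05), and without KO DMSO replicate 3 the unfolded protein response kept no called rise and the NRF2 targets 1. HMOX1, heme oxygenase, was at 78.99, 45.6 and 49.9 CPM against 35.2, 37.7 and 20.2 CPM (1.47 ± 0.29, adjusted p = 0.0078), with adjusted p = 0.12 without KO DMSO replicate 3. Among p53 targets and inhibitors of cyclin-dependent kinases 3 of 29 rose and 6 fell (background 6.46% and 7.08%); 1 and 1 did so in the summed setting, and 1 fell without WT DMSO replicate 3. CDKN1A, which encodes p21, did not pass (221, 261 and 375 CPM against 353, 362 and 361 CPM, -0.36 ± 0.24, adjusted p = 0.36). GADD45A, a stress-induced regulator of growth arrest, rose from 63.1, 56.05 and 73.4 CPM to 153, 165 and 173 CPM (1.28 ± 0.16, adjusted p = 0.00093), and XPC, a damage sensor of nucleotide excision repair, fell from 47.2, 50.7 and 74.8 CPM to 26.4, 32.1 and 35.4 CPM (-1.37 ± 0.19, adjusted p = 0.0014). Both calls held with any 1 library left out.

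Proliferation genes changed little by the test. Of 30 genes for S phase 2 rose and 0 fell, and of 30 for mitosis 2 rose and 0 fell, shares close to the background of 6.46%. MKI67, a marker of cycling cells, was at 301, 411 and 319 CPM against 712, 635 and 357 CPM: DMSO replicates 1 and 2 stood far above all other libraries and replicate 3 lay within the treated range (0.16 ± 0.24, adjusted p = 0.71). Cytosolic ribosomal proteins counted 0 calls among 76 in edgeR and in DESeq2 (3 and 5 rose at an unadjusted p under 0.05), although all 3 treated libraries lay above all 3 DMSO libraries for 40 of them (background 16.3%), with a median log2 fold change of 0.20. HIF targets rose in 2 of 31 members and fell in 1 (background 6.46% and 7.08%), and 1 and 1 did so in the summed setting.

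Matrix proteases and adhesion genes moved both ways. Of 25 matrix proteases and their inhibitors 8 rose and 6 fell (background 6.46% and 7.08%). In the summed setting 4 and 3 did so, and without KO DMSO replicate 3 the counts were 2 and 3. MMP1 (chromosome 11, 102789401-102798160, GRCh38), interstitial collagenase, was at 10.7, 8.53 and 3.38 CPM against 0.838, 0.961 and 0.149 CPM. Its DMSO replicate 3 value rests on 3 reads, and the fitted log2 fold change of 6.76 ± 0.71, adjusted p = 0.00047 exceeds the 5.60 of batch 1; the WT DMSO libraries, which also set the batch term, were at 4.67, 4.99 and 0.195 CPM. MMP7 (chromosome 11, 102520508-102530750), matrilysin, went the other way, at 2.19, 2.39 and 2.65 CPM against 12.5, 15.5 and 55.3 CPM (-5.52 ± 0.59, adjusted p = 0.00049; -4.51 within batch 1). PLAT, tissue plasminogen activator, was at 17.8, 11.5 and 14.1 CPM against 0.202, 0.558 and 0.447 CPM (4.85 ± 0.59, adjusted p = 0.00084), and MMP24, a membrane-type protease, at 35.2, 57.9 and 59.1 CPM against 187, 189 and 166 CPM (-1.86 ± 0.25, adjusted p = 0.0014). MMP1, MMP7, PLAT and MMP24 each separated the groups and kept their calls with any 1 library left out.

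PLAUR, the urokinase receptor, was at 161, 120.4 and 154 CPM against 38.8, 40.7 and 27.7 CPM (2.46 ± 0.61, adjusted p = 0.022), a call lost in the summed setting (adjusted p = 0.079) and without KO A1331852 replicate 1 or KO or WT DMSO replicate 3 (up to 0.15). ADAM10, a sheddase, fell from 409, 390.4 and 621 CPM to 265, 356 and 374 CPM (-0.97 ± 0.16, adjusted p = 0.0040). Of 31 collagen and matrix genes 7 rose and 7 fell (background 6.46% and 7.08%), and 3 and 1 did so in the summed setting. With 1 library left out the rises ran from 1 (without WT DMSO replicate 3) to 10 and the falls from 2 (without KO DMSO replicate 1) to 11 (both highest without WT A1331852 replicate 3). LAMB3, a laminin chain of epithelial basement membrane, was at 323, 248 and 251 CPM against 140.0, 136 and 41.9 CPM (2.87 ± 0.44, adjusted p = 0.0026), and SPARC, a matrix glycoprotein, at 562, 659.8 and 796 CPM against 1200.2, 1192 and 1339 CPM (-1.06 ± 0.18, adjusted p = 0.0039). INHBA, a subunit of activin, rose from 59.3, 57.4 and 40.1 CPM to 165, 166 and 296 CPM (2.65 ± 0.39, adjusted p = 0.0021). MCAM, a cell adhesion molecule, fell from 5.14, 5.67 and 5.81 CPM to 1.12, 1.404 and 1.13 CPM (-2.09 ± 0.25, adjusted p = 0.00082). LAMB3, SPARC, INHBA and MCAM kept their calls with any 1 library left out.

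Kidney epithelial genes moved both ways: over the list of 14 renal carcinoma and tubule markers 4 fell and 2 rose (2 and 1 in the summed setting). The background was 7.08% lower and 6.46% higher. In that list 8 had a positive fitted change and the median was 0.09. The 2 that rose were ANPEP, an aminopeptidase of the proximal tubule brush border, at 59.7, 52.98 and 38.01 CPM against 52.5, 54.8 and 18.4 CPM with overlap (1.21 ± 0.24, adjusted p = 0.0084), and the keratin KRT18, at 538, 366 and 338 CPM against 275, 284 and 235 CPM (1.01 ± 0.21, adjusted p = 0.011). KRT18 lost its call in the summed setting (adjusted p = 0.062), and without WT DMSO replicate 3 (0.091), and ANPEP without KO DMSO replicate 3 (adjusted p = 0.20). Outside the list, PDZK1 and SLC17A1 are named for the size of their fall. PDZK1, a scaffold for apical transporters of the proximal tubule, was at 1.65, 11.2 and 8.69 CPM against 109, 117 and 203 CPM (-4.94 ± 0.57, adjusted p = 0.00066). SLC17A1, a phosphate and urate transporter of that segment, was at 0.107, 0.572 and 0.265 CPM against 4.97, 5.21 and 6.65 CPM (-4.69 ± 0.54, adjusted p = 0.00066). CDH16, kidney-specific cadherin, was at 3.14, 4.21 and 5.44 CPM against 22.9, 26.1 and 33.5 CPM (-3.33 ± 0.29, adjusted p = 0.00029), and CDH6, a cadherin of the developing tubule, at 221, 248 and 113 CPM against 422, 417 and 653 CPM (-1.94 ± 0.36, adjusted p = 0.0058). PDZK1, SLC17A1, CDH16 and CDH6 separated the groups and kept their calls with any 1 library left out. PAX8, which marks renal carcinoma, was at 0.52 ± 0.17 (adjusted p = 0.066).

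Other large falls concerned guidance, transport and signalling genes. SEMA5B (chromosome 3, 122909082-123028605), a semaphorin, was at 0.586, 0.728 and 1.99 CPM against 22.1, 22.6 and 22.9 CPM (-5.16 ± 0.55, adjusted p = 0.00049). ALDH1A1, which makes retinoic acid, was at 129.7, 237 and 259.6 CPM against 838, 897 and 2884 CPM (-4.23 ± 0.54, adjusted p = 0.00098), and CD24, a surface glycoprotein, at 298, 426 and 415 CPM against 1512, 1548 and 2474 CPM (-2.99 ± 0.37, adjusted p = 0.00088). EDN2, an endothelin, was at 0.693, 1.77 and 0.398 CPM against 35.4, 37.1 and 25.01 CPM (-4.93 ± 0.80, adjusted p = 0.0034), and FOLR1, a folate receptor, at 0.906, 0.208 and 1.79 CPM against 9.28, 9.33 and 13.3 CPM (-4.42 ± 0.67, adjusted p = 0.0023). The receptors S1PR1 (-4.20 ± 0.57, adjusted p = 0.0013) and FGFR2 (-3.53 ± 0.64, adjusted p = 0.0058), the exchange factor VAV3 (-4.56 ± 0.67, adjusted p = 0.0021) and the WNT antagonist SFRP4 (-3.87 ± 0.49, adjusted p = 0.00099) also fell. ALDH1A1, CD24 and SFRP4 were highest in DMSO replicate 3, and in each gene of this group every treated library lay below every control.

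Among other large rises, TMEM158, a gene known from RAS-induced senescence, was at 334, 187 and 331 CPM against 13.4, 14.04 and 18.7 CPM (4.33 ± 0.68, adjusted p = 0.0028). PTX3, a pentraxin of innate immunity, was at 24.8, 16.7 and 13.7 CPM against 1.94, 1.89 and 1.29 CPM (4.81 ± 0.85, adjusted p = 0.0047). DNER, a Notch ligand, was at 7.14, 6.08 and 4.71 CPM against 0.2601, 0.279 and 0.298 CPM (4.84 ± 0.51, adjusted p = 0.00049). SIGLEC15, a sialic acid lectin, was at 74.5, 26.5 and 30.1 CPM against 1.62, 2.64 and 0.893 CPM (5.62 ± 0.98, adjusted p = 0.0046), with adjusted p = 0.072 without KO DMSO replicate 3, whereas TMEM158, PTX3 and DNER kept their calls with any 1 library left out. KRT81, a hair keratin with near-identical relatives between which reads may be divided, was at 36.03, 50.1 and 37.3 CPM against 4.39, 4.53 and 2.78 CPM (4.25 ± 0.35, adjusted p = 0.00027). Genes that rose were protein-coding in 90.2% and those that fell in 82.6%, against 77.7% of all genes tested. Of noncoding genes, LINC02532 fell from 23.7, 26.3 and 63.2 CPM to 0.533, 2.24 and 3.45 CPM (-5.90 ± 0.69, adjusted p = 0.00066), and MIR100HG, host of a microRNA cluster, rose from 2.83, 3.84 and 3.32 CPM to 24.8, 19.1 and 32.8 CPM (3.18 ± 0.76, adjusted p = 0.018), the latter with adjusted p = 0.065 in the summed setting and up to 0.13 without KO or WT DMSO replicate 3.

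The same contrast in WT cells gave smaller fitted changes for the genes called in KO cells, as selection on the KO values alone would also give: their WT medians were 0.45 for the 1050 that rose and -0.54 for the 1151 that fell. The test of the difference itself, the interaction of genotype and treatment, called 33 genes with a higher response in KO cells (0.203%) and 15 with a lower one (0.0923%). Of the 49 interferon-stimulated genes 9 were among the 33, and the median WT change over that list was 0.18. OASL was at 4.85, 5.13 and 6.74 CPM in treated WT replicates 1 to 3 and 6.53, 5.59 and 1.11 CPM in WT DMSO replicates, so its response differed by 2.81 ± 0.35 on the log2 scale (adjusted p = 0.0074). IFIT3 was at 40.5, 60.9 and 67.7 CPM against 49.5, 48.4 and 39.1 CPM in WT cells, a difference of responses of 2.23 ± 0.26 (adjusted p = 0.0073). IFIT2 was at 19.00, 23.3 and 36.6 CPM against 17.5, 17.8 and 14.8 CPM, a difference of 2.50 ± 0.30 (adjusted p = 0.0073). In IFIT2 and IFIT3 the lowest treated KO library stood above the highest treated WT library by several times.

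These interaction calls depend on DMSO replicates 1 and 2 counting as separate libraries. When they were summed, 0 genes passed (753 at an unadjusted p under 0.05, edgeR), as also within batch 1 (280), without KO DMSO replicate 1 (1186) and without KO DMSO replicate 2 (1159), whereas DESeq2 called 371. All 48 kept the sign of the difference in each of those fits.

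ERK outputs had a WT median of 1.70 beside 1.94 in KO cells, and edgeR and DESeq2 called 0 of the 20 different (2 at an unadjusted p under 0.05 in each). ETV1 changed by 2.12 ± 0.22 in WT and 2.09 ± 0.21 in KO cells. Cholesterol genes had a WT median of -0.59 beside -0.87, and mitochondrial mRNAs -0.19 beside -0.84, with 0 interaction calls in either list in edgeR (3 and 9 at an unadjusted p under 0.05) and 1 and 2 in DESeq2. The response of MT-CO1 differed by -0.95 ± 0.24 (adjusted p = 0.13), and that of HMGCS1 by -0.60 ± 0.34 (adjusted p = 0.58); neither passed, which does not show that the responses were alike.

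**Figure D4:**
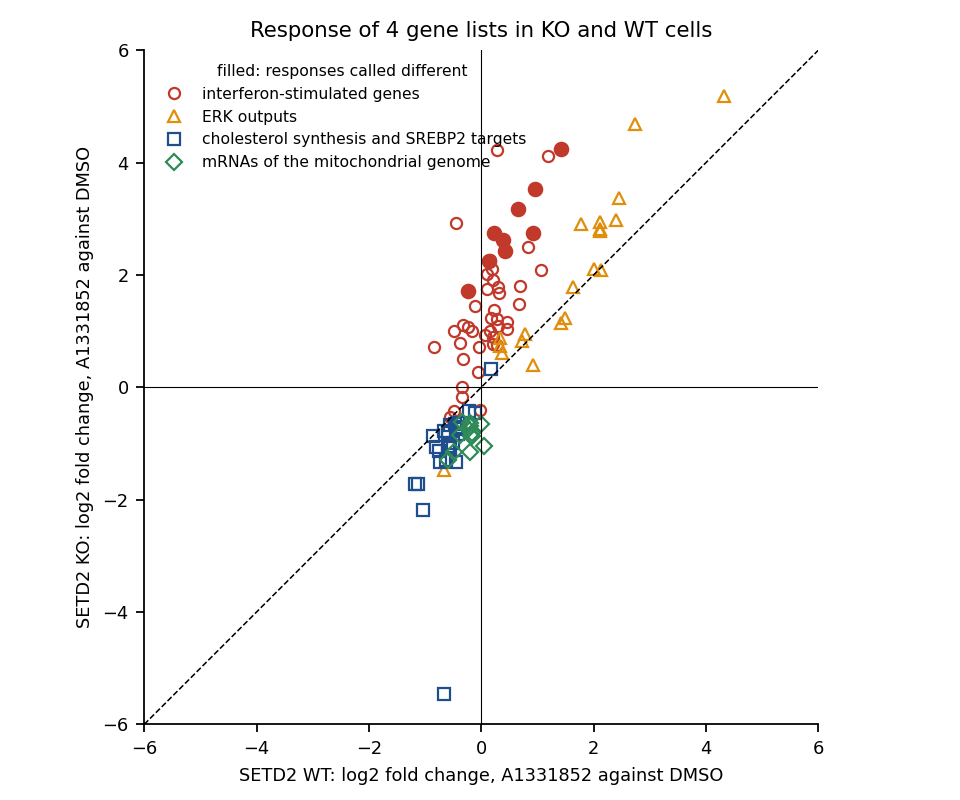
Fitted log2 fold change with A1331852 in WT (x axis) and KO cells (y axis) for the tested members of 4 gene lists, filled where the 2 responses were called different and with the diagonal of equal response dashed. Most interferon-stimulated genes lie above the diagonal near a WT change of 0, while ERK outputs and cholesterol genes lie nearer to it.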

How the data were processed

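Total RNA (350 ng per library, poly-A selected, NEBNext Ultra II) was sequenced as 150-base pairs, per the labels' protocols. The deposited tables hold raw read counts per gene, made by the authors with featureCounts 1.5.0-p3 on exons with strand setting 2 and GENCODE 41, per the file headers, and STAR and hg38 are named in the submitters' processing notes. Counts of the 12 786-O libraries were taken as deposited. Gene positions were those of the deposited tables (GENCODE 41). Gene types came from GENCODE 29 (36623 of 60606 gene names matched) and RefSeq (39403 matched). edgeR 4.0.16 (R 4.3.3) was used with TMM factors, the count filter at a minimum of 10, a term per group and a batch term. P-values came from its quasi-likelihood test, were adjusted by Benjamini and Hochberg's method over 16260 genes, and gave calls at 0.05. CPM values are TMM-normalised, and each SE is the log2 fold change divided by the square root of F. The code was tested on simulated data. Alternatives used DESeq2 1.42.0, limma 3.58.1, other scaling, filters, batch handling and 1 library left out at a time. Replicate numbers were not taken as pairs, since the labels give no more than a number. Deviations of same-numbered KO libraries from their group means correlated at -0.02, -0.03 and 0.01. Those of the DMSO libraries mainly follow batch, which was not removed, so these correlations cannot decide on pairing. The comparison and the 44 gene lists and 5 marker lists were chosen with earlier results of these data known. Named genes are 17 fixed genes, the 15 largest protein-coding rises and falls without overlap whose higher group averaged 5 CPM or more, 4 noncoding genes each way, up to 4 called members per list with the smallest adjusted p, and 8 differences of response each way; other list members named were chosen after their values were seen, mainly for their known role. Values of some genes the rule takes in are not reported here. In the text, a log2 fold change is printed with its SE, and the summed setting is that with DMSO replicates 1 and 2 of each genotype added together. Precision is limited by 3 libraries per group and, for low genes, by depth.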

Additional observations from a re-analysis of the deposited data

Results flagged for a closer look

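The response to A1331852 differed between KO and WT cells in 48 genes by the interaction test of edgeR. Large positive differences (KO minus WT response, log2) among protein-coding genes that also changed in KO cells were MMP1 6.44, DNER 3.97, KRT81 3.12, SERPINB7 3.02, OASL 2.81, PLXNA2 2.68 and ISG20 2.57. SERPINB7, a serine protease inhibitor, was at 13.5, 8.01 and 6.17 CPM in treated and 2.601, 1.98 and 1.44 CPM in DMSO KO libraries. The largest negative differences were SEMA5B -4.24, PDZK1 -3.86, CD24 -2.39, NCKAP5 -2.32, CDH16 -2.32, AKR1B10 -1.93, CFI -1.91 and MAP7D2 -1.81. SEMA5B was at 22.7, 42.1 and 28.1 CPM in treated and 22.8, 23.1 and 82.1 CPM in DMSO WT libraries, and PDZK1 at 155, 147 and 65.3 CPM and 136, 111 and 279.7 CPM, so WT DMSO replicate 3 is far above replicates 1 and 2 in both genes. AKR1B10, an aldo-keto reductase, fell in KO cells (-1.24 ± 0.28, adjusted p = 0.013) and was at 0.69 ± 0.32 in WT cells. Adjusted p-values of these 15 differences ran from 0.0073 (the lowest, shared by several) to 0.042, and none passed when DMSO replicates 1 and 2 were summed.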

How the results depend on the processing

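The KO comparison called 2201 genes. It called 1489 without the batch term, 2199 and 2194 with RLE and upper-quartile scaling, 3033 without the low-count filter, 1870 with a mean of at least 50 counts, 2236 in limma voom and 3075 in DESeq2. Batch 1 alone gave 85, KO libraries alone 1010, glmTreat with a log2 threshold of 1 217, and DMSO replicates 1 and 2 summed 656. With 1 library left out the count ran from 592 (without WT DMSO replicate 3) to 3593 (without WT A1331852 replicate 3). All 2201 calls with a value kept their sign in these fits, except that 2116 did without the batch term. A replicate block raised the count to 4311 and that of the interaction from 48 to 334; same-numbered libraries share only a number, and the block is not a better account of them. The interaction gave 7 without the batch term, 0 in batch 1 (280 unadjusted), 647 without the filter, 371 in DESeq2, 1 in glmTreat and 0 with DMSO replicates 1 and 2 summed (753 unadjusted), and, with 1 library left out, from 0 (without KO DMSO replicate 1 or 2) to 5.0e+02 (302 higher and 196 lower, without WT A1331852 replicate 3). Signs turned for some genes without a call and for some with one. BAK1 was at -0.54 without the batch term, -0.076 in batch 1, -0.090 in KO libraries alone, -0.097 with the replicate block and -0.025 with upper-quartile scaling, and -0.081 to 0.30 with 1 library left out. MKI67 was at -0.72 without the batch term, -0.044 in batch 1 and -0.058 in KO libraries alone, -0.038 with the replicate block, and -0.049 to 0.60 with 1 library left out. BBC3 was at 0.12 with the replicate block. Without the batch term CDT1 (-0.063), HK1 (-0.087), POLG (-0.13), TNC (-0.18), TUBG1 (-0.069) and NSD2 (-0.012) turned negative. All of these were called higher in the 12-library fit. The cause of these shifts was not tested. Depth limits genes under about 1 CPM.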

Other observations

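The acute phase and complement list fell in 4 of 11 tested members and rose in 0, and 2 fell in the summed setting. Its median log2 ratio was -0.77 against DMSO replicate 3 and 0.21 against replicates 1 and 2, so its direction depended on the control. For this list and those named after it the background was 7.08% lower and 6.46% higher. CFI, which inactivates complement C3b, was at 10.3, 11.5 and 12.5 CPM in treated KO libraries and 15.2, 14.8 and 58.00 CPM in DMSO ones (-2.81 ± 0.27, adjusted p = 0.00037), and SAA1, serum amyloid A, at 1.33, 1.56 and 1.46 CPM against 3.27, 3.63 and 6.45 CPM (-1.91 ± 0.37, adjusted p = 0.0070), the latter with adjusted p = 0.16 without KO DMSO replicate 3. TCF7, a WNT-responsive transcription factor, rose by a log2 fold change of 1.58 ± 0.19 (adjusted p = 0.00083), and 3 of 21 WNT genes rose and 1 fell (1 rose in the summed setting). NEU1, a lysosomal sialidase, fell from 122, 132 and 134 CPM to 69.6, 65.6 and 68.9 CPM (-1.10 ± 0.16, adjusted p = 0.0020), while the lysosome and autophagy list rose in 2 of 36 members and fell in 2. TUBA1A, an alpha tubulin, was at 30.5, 32.8 and 42.5 CPM against 51.6, 56.4 and 135 CPM (-1.95 ± 0.24, adjusted p = 0.00093), and MYL9, a myosin light chain, at 46.4, 49.8 and 50.2 CPM against 148, 147 and 119 CPM (-1.28 ± 0.20, adjusted p = 0.0027). Of 12 replication-dependent histone genes 2 fell and 0 rose, of 27 splicing factors 1 rose and 0 fell, and of 23 genes for H3K36 methylation and chromatin suppression 1 rose and 0 fell.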
